A study of Homo sapiens with 24 samples.

Results

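6 genes that fell after depletion of MCM7 in human cancer cells are described here: CRISPLD1, LSR, KIAA0040, UNC5B, PPFIBP2 and EPHX1. They are 6 of the 21386 genes listed in the count tables and were chosen by their read counts in the same libraries. CRISPLD1, LSR, KIAA0040 and UNC5B were low with MCM7 both in A375, a melanoma line, and in A549, a lung cancer line, and PPFIBP2 and EPHX1 in A375 alone. Because of that choice, their falls in A375 shMCM7 cells and their order against MCM7 in A549 are a description, given without a test. The 3 A549 libraries low in MCM7 bear 3 labels, among them parental cells without Dox. Low MCM7 in A549 thus did not follow the labels for shRNA and Dox. Whether those labels match the cells was not tested. In A375 shMCM7 cells the drop with doxycycline (Dox) ran from 4.32-fold for CRISPLD1 to 1.77-fold for EPHX1. In parental A375 cells 0 of the 6 genes passed the thresholds for a change with Dox, as did 0 (0%) of all 15993 genes tested. Levels differed widely between the parental libraries of the lines, as KIAA0040 was 52.9-fold higher and PPFIBP2 73.4-fold lower in A375 than in A549. That A549 set includes the parental library low in MCM7, and the line cannot be told apart from sequencing depth and batch.

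MCM7 is a subunit of the ring-shaped MCM helicase that is loaded onto replication origins in the G1 phase and unwinds DNA in S phase. The 6 genes encode proteins of different kinds, and whether they share a pathway was not tested. CRISPLD1 encodes a secreted protein with a CAP domain and LCCL domains. LSR, the lipolysis-stimulated lipoprotein receptor, is a membrane protein that marks the corners where epithelial cells meet and recruits tricellulin there. UNC5B is a netrin receptor known for axon repulsion, vessel guidance and cell death in the absence of its ligand. PPFIBP2 is a liprin beta, a cytoplasmic scaffold of the liprin family. EPHX1 is the microsomal epoxide hydrolase, which turns reactive epoxides made from drugs and pollutants into diols. KIAA0040 is a small, poorly characterised protein-coding gene. On GRCh38 with GENCODE 29, CRISPLD1 (ENSG00000121005) lies on chromosome 8 from 74984515 to 75034558, LSR (ENSG00000105699) on chromosome 19 from 35248330 to 35267964, and KIAA0040 (ENSG00000235750) on chromosome 1 from 175156987 to 175192999. UNC5B (ENSG00000107731) lies on chromosome 10 from 71212570 to 71302864, PPFIBP2 (ENSG00000166387) on chromosome 11 from 7513298 to 7657127, and EPHX1 (ENSG00000143819) on chromosome 1 from 225810092 to 225845563.

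RNA was sequenced from cells held at the G1/S boundary with a double thymidine block. A375 and A549 cells were either parental or transduced with an MCM7 shRNA in the vector pRSIT17 that Dox switches on (shMCM7 cells). Each kind was kept with 1 μg/ml Dox for 72 hours or without it (noDox), with 3 biological replicates, which makes 4 groups per line and 24 libraries. The Dox control was the parental line without an shRNA, and shMCM7 cells were puromycin-resistant populations obtained by lentiviral transduction, as the study's methods describe. A375 libraries held 146656792 to 283721575 counts and A549 libraries 17911338 to 23452823. Levels are given in CPM, counts scaled to library totals with TMM factors, where 3 counts correspond to 0.0106 to 0.0205 CPM in A375 and 0.128 to 0.167 CPM in A549. Levels are of bulk RNA, in which fewer cells carrying a transcript and less transcript per cell cannot be told apart. The lines matched their names in part. SOX10, the neural crest factor of melanoma cells, was at 487 to 657 CPM in A375 and at 0 in every A549 library, and the epithelial cadherin CDH1 was at 0.0450 to 0.155 CPM in A375 and 56.5 to 98.2 CPM in A549. The melanocyte factor MITF, by contrast, was at 25.96 to 43.9 CPM in A375 and 36.3 to 53.3 CPM in A549. The pigment genes MLANA and TYR stood below the level of 3 counts in all A375 libraries, and the surfactant gene SFTPB did so in all A549 libraries.

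The sequences that bear on these genes are the target of the shRNA and the start regions of 2 of the members. The target is shown because a short match to an shRNA can lower an unintended transcript. Its 21 bases lie in the coding part of MCM7 on the minus strand of chromosome 7 (chr7:100097728-100097836, GRCh38) and join exon 7 to exon 8 of 14. Capitals mark the bases that pair with positions 2 to 8 of the guide, its seed.
MCM7 target: cagaggaggatttCTACGAAa
The whole target was found in the longest coding transcript of 1 of 19559 protein-coding genes, MCM7 itself. Other transcripts were searched for MCM7 only, and 5 of its 13 annotated transcripts held the target. The seed match CTACGAA alone was present in the longest coding transcript of 1019 of 19559 genes (5.21%). Among the members it occurred 1 time in CRISPLD1, in the 3′ UTR, and 0 times in LSR, KIAA0040, UNC5B, PPFIBP2 and EPHX1. Its part in the fall of CRISPLD1 was not tested.

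Start regions were searched on both strands for 8 motifs: the CCAAT box, the CHR (letters TTTGAA), the E2F site (letters TTTNNCGC), the GC box (letters GGGCGG), the E-box (letters CACGTG), the AP-1 site (letters TGANTCA), the CRE (letters TGACGTCA) and the TEAD site (letters CATTCC). The 300-base windows from RefSeq (GRCh38.p14) reach from 250 bases before the start to 50 after it. LSR and KIAA0040 had 1 window each and are printed as the members with 1 start, with matches in capitals. That of LSR is chr19:35248752-35249051 on the plus strand and that of KIAA0040 is chr1:175192938-175193237 on the minus strand.
LSR: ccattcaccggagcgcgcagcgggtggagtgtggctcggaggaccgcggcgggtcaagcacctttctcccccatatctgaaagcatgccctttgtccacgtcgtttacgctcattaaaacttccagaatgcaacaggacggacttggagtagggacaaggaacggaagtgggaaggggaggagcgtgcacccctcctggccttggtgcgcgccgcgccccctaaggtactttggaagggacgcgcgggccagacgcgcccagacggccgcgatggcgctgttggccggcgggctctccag
KIAA0040: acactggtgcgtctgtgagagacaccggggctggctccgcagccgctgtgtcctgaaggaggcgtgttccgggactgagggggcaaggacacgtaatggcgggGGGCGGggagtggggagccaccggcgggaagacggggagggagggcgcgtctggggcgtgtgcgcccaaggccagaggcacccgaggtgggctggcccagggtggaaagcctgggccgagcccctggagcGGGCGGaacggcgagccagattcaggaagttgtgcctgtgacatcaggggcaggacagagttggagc
The LSR window held 0 of the 8 motifs. The KIAA0040 window held 2 GC boxes, at -147 and -17 from the start, a motif present in 45% of all 35116 windows. The GC content was 64.3% for LSR and 69.7% for KIAA0040, against a median of 58.7% over all windows. PPFIBP2 had 5 windows and EPHX1 had 3. GC boxes were present in 2 of the 5 PPFIBP2 windows and 2 of the 3 EPHX1 windows, and the CCAAT box in 2 of 5 and 2 of 3 (34.6% of all windows). The CHR, E2F and CRE letters, present in 15.2%, 6.89% and 1.85% of all windows, occurred in none of the 10 windows of these 4 genes. The E-box, AP-1 and TEAD letters (7.26%, 7.71% and 14% of all windows) were found in PPFIBP2 windows, 1, 1 and 2 of 5, and in none of the others, and in 1 of these windows the CCAAT, TEAD and AP-1 matches overlap. CRISPLD1 and UNC5B had no entry.

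The knockdown itself was checked first. In A375 shMCM7 cells with Dox, MCM7 (ENSG00000166508, chromosome 7, 100092728 to 100101940) was at 76.1, 74.4 and 75.9 CPM in replicates 1 to 3. Without Dox it was at 342 and 349 CPM in replicates 2 and 3, whereas replicate 1 had 128 CPM. Parental cells had 345 to 360 CPM with Dox and 333 to 344 CPM without. The library shMCM7 noDox replicate 1 thus stood apart from its group in the targeted gene, and the falls of the members, their ranks and the counts of called genes are given with and without it.

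Among the surface and secreted members, CRISPLD1 had the deepest fall. It was at 3.03, 2.90 and 2.67 CPM in the 3 A375 shMCM7 Dox libraries and at 6.39, 13.9 and 16.3 CPM without Dox. In parental cells it was at 15.8, 15.8 and 16.3 CPM with Dox and 15.1, 15.1 and 16.7 CPM without. All 3 induced libraries were below every other A375 library, and shMCM7 noDox replicate 1 lay between the induced and the remaining libraries. The log2 fold change between shMCM7 Dox and noDox was -2.11 (SE 0.28, n = 3 per group) and -2.42 (SE 0.10) without shMCM7 noDox replicate 1.

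LSR was expressed at a few CPM in A375. It was at 1.04, 0.722 and 0.837 CPM in shMCM7 Dox and at 2.49, 3.48 and 3.94 CPM in shMCM7 noDox cells. The parental libraries had 3.03, 3.73 and 3.68 CPM with Dox and 3.50, 3.22 and 3.69 CPM without. The induced libraries were the 3 lowest of 12, and the next was shMCM7 noDox replicate 1. On the log2 scale Dox changed LSR by -1.94 (SE 0.19), or -2.11 (SE 0.15) without that replicate.

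UNC5B was at 2.71, 2.80 and 2.41 CPM in shMCM7 Dox and at 8.15, 9.44 and 9.74 CPM in shMCM7 noDox cells. Parental cells had 11.8, 11.7 and 10.7 CPM with Dox and 10.9, 10.2 and 11.04 CPM without. All 3 uninduced shMCM7 libraries lay below all 6 parental ones, and the 3 induced libraries lay far below both. The log2 fold change with Dox in shMCM7 cells was -1.81 (SE 0.10), or -1.88 (SE 0.10) without shMCM7 noDox replicate 1.

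KIAA0040 had the highest level per kilobase of exon of the 6 in A375. It was at 50.9, 46.8 and 42.1 CPM in shMCM7 Dox and at 110, 124 and 140 CPM in shMCM7 noDox cells. In parental cells it was at 180, 142 and 136 CPM with Dox and 181, 135 and 151 CPM without. Replicate 1 was the highest in both parental groups, and the induced libraries were again the 3 lowest. KIAA0040 differed by -1.44 on the log2 scale (SE 0.10), or -1.52 (SE 0.09) without shMCM7 noDox replicate 1.

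The intracellular members PPFIBP2 and EPHX1 followed the same order. PPFIBP2 was barely expressed in A375, at 0.197, 0.184 and 0.218 CPM in shMCM7 Dox (35 to 57 counts) and at 0.470, 0.513 and 0.540 CPM in shMCM7 noDox cells (107 to 142 counts). Parental libraries had 0.547, 0.579 and 0.581 CPM with Dox and 0.659, 0.482 and 0.559 CPM without. The induced libraries did not overlap any other group. Between shMCM7 Dox and noDox its log2 fold change was -1.36 (SE 0.17), or -1.41 (SE 0.18) without shMCM7 noDox replicate 1.

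EPHX1 was at 22.1, 20.4 and 21.0 CPM in shMCM7 Dox and at 36.5, 37.2 and 37.2 CPM in shMCM7 noDox cells. Parental cells had 43.2, 39.7 and 39.6 CPM with Dox and 41.6, 35.04 and 36.5 CPM without. Uninduced shMCM7 cells stood within the range of parental noDox cells, and the 3 induced libraries lay below all others. EPHX1 had the smallest log2 fold change of the 6, -0.82 (SE 0.05), or -0.83 (SE 0.06) without shMCM7 noDox replicate 1. EPHX1 overlaps TMEM63A on the opposite strand, and since the strand setting of the counting is not given in the sources used here, reads of the overlap cannot be assigned with certainty. TMEM63A itself had a log2 fold change of 0.07 (FDR = 0.291).

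**Figure D1:**
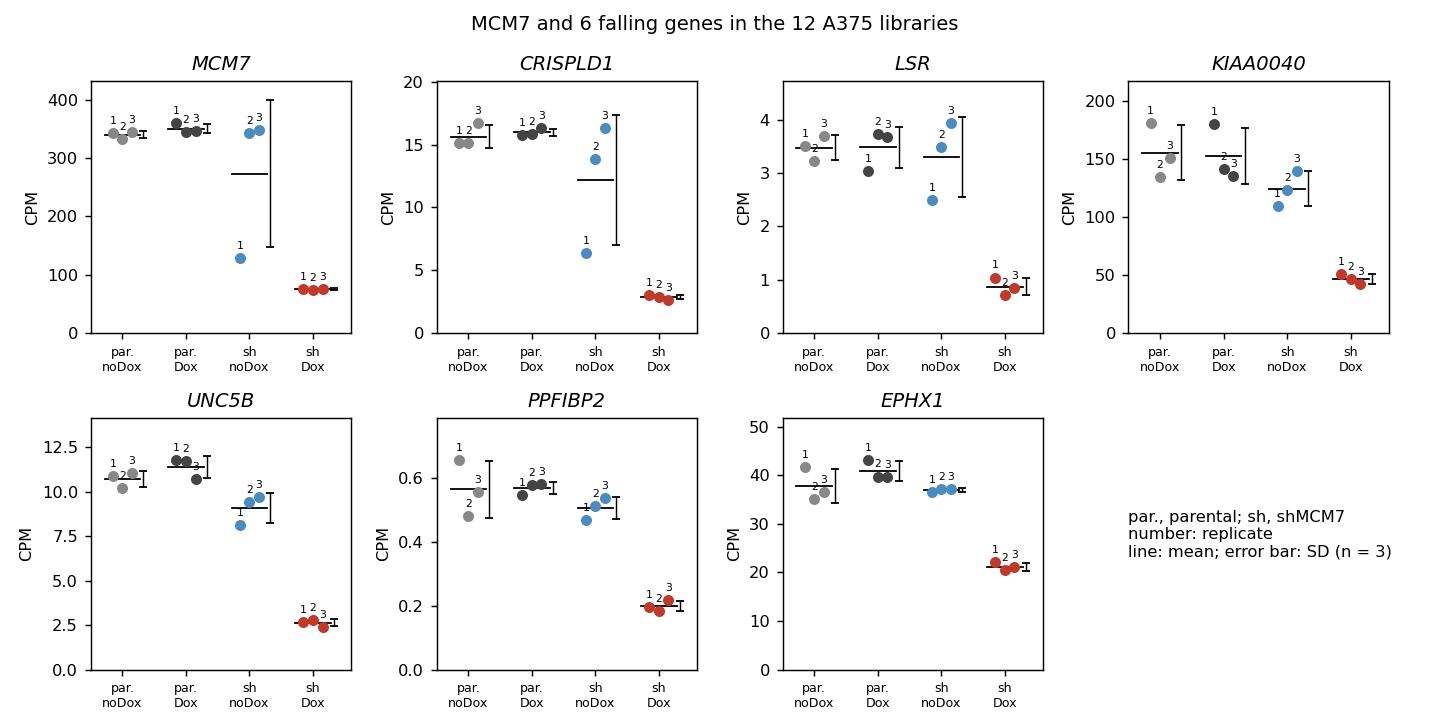
CPM of MCM7 and the 6 genes in the 12 A375 libraries, by construct and Dox, with the replicate number at each point. Lines are means and error bars SD (n = 3); in every panel the 3 shMCM7 Dox libraries are the lowest, and shMCM7 noDox replicate 1 stands apart in MCM7 (128 CPM) and CRISPLD1 (6.39 CPM).

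With Dox, A375 shMCM7 cells had 1037 genes called lower (6.45%) and 897 called higher (5.58%) among 16087 tested. A call required a 1.5-fold change, p under 0.01 and FDR under 0.05 in edgeR's quasi-likelihood test. All 6 members are among those called lower, as their choice required. By the size of the fall, CRISPLD1 ranked 21, LSR 37, UNC5B 54, KIAA0040 137, PPFIBP2 164 and EPHX1 596 among the 1037, and MCM7 itself 48. Without shMCM7 noDox replicate 1, 1146 genes were called lower (7.05%) and 965 higher (5.93%), and the ranks became 15 for CRISPLD1, 42 for LSR, 66 for UNC5B, 152 for KIAA0040, 187 for PPFIBP2, 679 for EPHX1 and 30 for MCM7. The label of strong falls thus applied to 5 of the genes, while EPHX1 lay in the weaker part of the list. The 3 induced libraries were below the 3 uninduced ones for 6 of 6 members, an order met by 26.5% of all genes tested.

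Dox alone was compared in parental cells. The genes were chosen for their fall in shMCM7 cells, but the parental libraries were among those read to choose them. The FDRs of the members are thus not a test on separate data. None of the 6 was called, and the FDR ranged from 0.771 to 0.994. The log2 fold change was 0.03 (SE 0.07, FDR = 0.941) for CRISPLD1, 0.01 (SE 0.11, FDR = 0.992) for LSR and -0.03 (SE 0.11, FDR = 0.974) for KIAA0040. It was 0.09 (SE 0.07, FDR = 0.819) for UNC5B, 0.01 (SE 0.18, FDR = 0.994) for PPFIBP2 and 0.11 (SE 0.07, FDR = 0.771) for EPHX1. The Dox and noDox libraries overlapped for each of the 6 genes. Over all 15993 genes, 0 (0%) were called by edgeR, with 1121 at an unadjusted p under 0.05, and DESeq2 called 3 higher and 0 lower.

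Against the parental line, the induced cells were lower in all 6 genes, in a comparison that shares its shMCM7 Dox libraries with the one above and is likewise a description. With Dox, the log2 fold change of shMCM7 over parental cells was -2.50 for CRISPLD1, -2.02 for LSR, -2.13 for UNC5B, -1.73 for KIAA0040, -1.52 for PPFIBP2 and -0.96 for EPHX1. The library that stood apart has no part in these values. Without Dox, the values were -0.35 for CRISPLD1, -0.07 for LSR, -0.23 for UNC5B, -0.32 for KIAA0040, -0.15 for PPFIBP2 and -0.03 for EPHX1, all short of a 1.5-fold change. When shMCM7 noDox replicate 1 was left out, CRISPLD1 came to -0.04 and LSR turned to 0.11, while UNC5B and KIAA0040 remained at -0.15 and -0.23. Same-numbered libraries deviated together in that comparison, in which 189 genes were called higher and 77 lower, or 335 and 149 when the number entered the fit as a block. The values of single genes given for that comparison, here and below, are from the fit without the block.

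**Figure D2:**
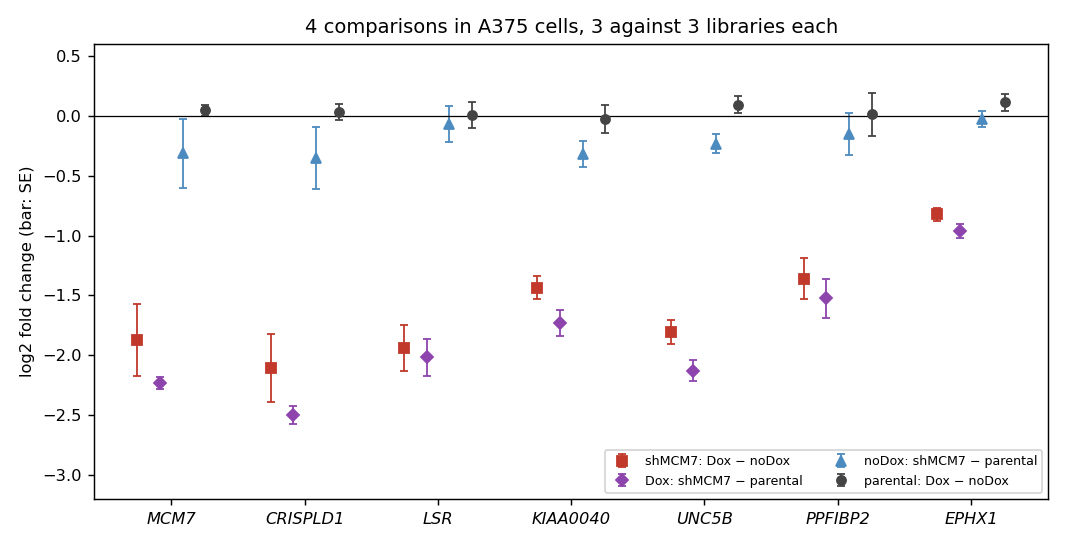
Log2 fold changes (bars, SE) of MCM7 and the 6 genes in 4 comparisons of 3 against 3 A375 libraries. Both comparisons that involve induced shMCM7 cells are below 0 for every gene, down to -2.50 for CRISPLD1, and parental cells with and without Dox differ by 0.11 or less.

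The uninduced library with low MCM7 held intermediate amounts of these transcripts. Relative to the median of the 6 parental libraries, shMCM7 noDox replicate 1 had 37.1% of MCM7, 40.5% of CRISPLD1, 69.3% of LSR, 74.3% of UNC5B, 75.1% of KIAA0040, 82.6% of PPFIBP2 and 92.0% of EPHX1. In the induced libraries, MCM7 stood at 21.6 to 22.1%, CRISPLD1 at 16.9 to 19.2%, LSR at 20.1 to 29.01% and UNC5B at 21.97 to 25.5%. KIAA0040 was at 28.8 to 34.8%, PPFIBP2 at 32.4 to 38.2% and EPHX1 at 51.5 to 55.6%. CRISPLD1 thus lay close to the share of MCM7 in that library, whereas LSR was at 69.3% there although its induced libraries stood near those of MCM7. In replicate 1 each of the 6 genes was between the other uninduced and the induced libraries, an order met by 14.1% of all genes tested. For 5 of 6, all except EPHX1, it was also below all parental libraries, as were 16.3% of all genes.

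**Figure D3:**
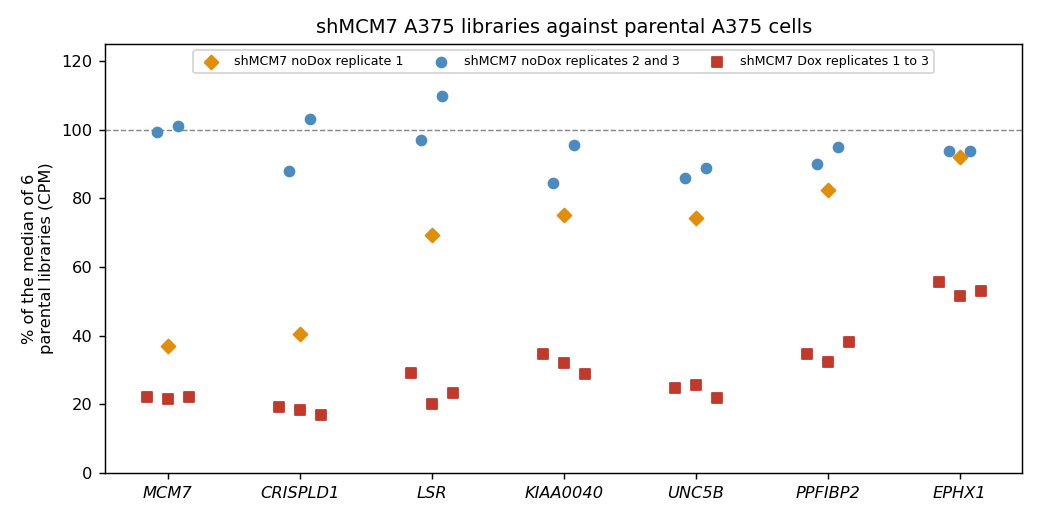
CPM in each shMCM7 A375 library as a percentage of the median of the 6 parental libraries (dashed line, 100%). The diamond, shMCM7 noDox replicate 1, lies at 37.1% for MCM7 and 40.5% for CRISPLD1 but at 92.0% for EPHX1, and the squares are the 3 induced libraries.

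In A549, low MCM7 was found in 3 libraries that bear 3 labels: shMCM7 Dox replicate 3 (98.2 CPM), shMCM7 noDox replicate 2 (102 CPM) and parental noDox replicate 2 (92.4 CPM). The other 9 libraries, among them those labelled shMCM7 Dox replicates 1 and 2, had 305 to 346 CPM. MCM7 thus went against the labels, and no library lay between 150 and 250 CPM. By the labels, 0 (0%) of 13550 genes were called between shMCM7 Dox and noDox and 0 (0%) of 13494 between parental Dox and noDox. At an unadjusted p under 0.05 there were 61 and 1137, and DESeq2 called 0 and 9. By label, the log2 fold change with Dox in shMCM7 cells was 0.08 (SE 0.80) for CRISPLD1, 0.21 (SE 0.51) for LSR and 0.40 (SE 0.64) for KIAA0040. It was 0.06 (SE 0.55) for UNC5B, -0.02 (SE 0.11) for PPFIBP2 and 0.08 (SE 0.10) for EPHX1. Each library is therefore described beside its own MCM7 level, without a mean or a test over libraries of unlike label.

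CRISPLD1 was at 0.660 CPM in the library labelled shMCM7 Dox replicate 3, at 0.419 CPM in shMCM7 noDox replicate 2 and at 0.941 CPM in parental noDox replicate 2. The other 9 libraries had 2.74 to 4.26 CPM, with a median of 3.001. All 3 libraries low in MCM7 were lower, and the gap was 2.92-fold at its narrowest, although they held only 8 to 18 reads of this gene.

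LSR was at 8.93, 5.29 and 4.39 CPM in those 3 libraries, in the same order, and at 14.5 to 22.7 CPM in the other 9 (median 17.7). KIAA0040 was at 1.495, 0.785 and 0.784 CPM, against 2.58 to 4.72 CPM (median 3.601). UNC5B was at 0.880, 0.419 and 0.261 CPM, from 5 to 20 reads, against 1.30 to 1.93 CPM (median 1.60). For each of these genes the 3 libraries were the lowest of 12, and the library labelled shMCM7 Dox replicate 3 was the highest of the 3.

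PPFIBP2 and EPHX1 did not follow MCM7 in A549. PPFIBP2 was at 44.99, 46.4 and 44.7 CPM in the 3 libraries with low MCM7 and at 35.6 to 44.1 CPM (median 40.2) in the other 9, so that the 3 were the highest of 12. EPHX1 was at 256, 236 and 256 CPM against 241 to 287 CPM (median 260), and the ranges overlapped. Thus 4 of 6 members were lower in every library low in MCM7, as were 18.1% of 13785 genes, and 1 of 6 was higher, as were 20.5%. The 4 were picked for that order, so these counts describe the choice.

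**Figure D4:**
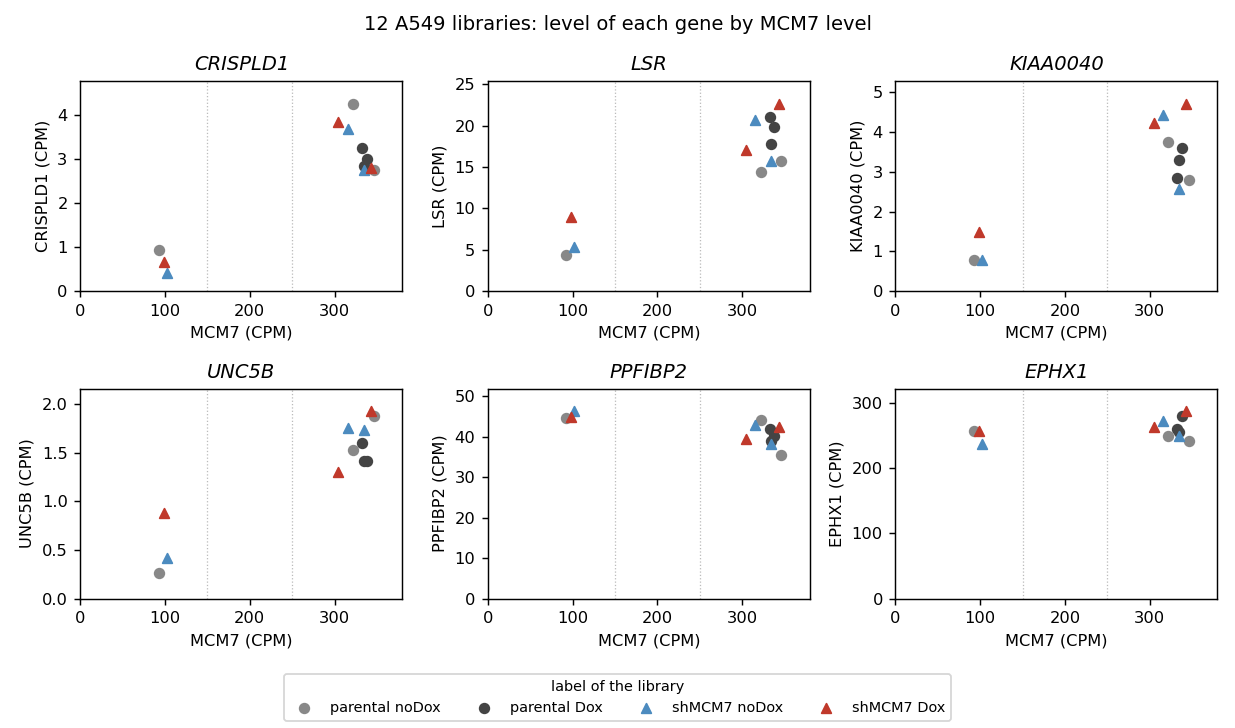
CPM of each gene against CPM of MCM7 in the 12 A549 libraries, coloured by label, with dotted lines at 150 and 250 CPM of MCM7. CRISPLD1, LSR, KIAA0040 and UNC5B are lowest in the 3 libraries at 92.4 to 102 CPM of MCM7, which carry 3 labels, while PPFIBP2 is highest there and EPHX1 overlaps.

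The 6 genes were not chosen for their starting levels in parental cells of the lines. The parental libraries were, however, among those read to choose them, and the A549 library parental noDox replicate 2 is among the 3 low in MCM7. Per kilobase of exon, the median levels in parental A375 were, from high to low, 30.6 CPM/kb for KIAA0040, 15.8 for EPHX1, 3.48 for CRISPLD1, 1.60 for UNC5B, 1.23 for LSR and 0.0581 for PPFIBP2, and neighbours in this order did not overlap over the 6 libraries. In parental A549 the order was 102 CPM/kb for EPHX1, 5.74 for LSR, 4.19 for PPFIBP2, 0.644 for KIAA0040, 0.642 for CRISPLD1 and 0.215 for UNC5B. There LSR spanned 1.51 to 7.21 CPM/kb and overlapped PPFIBP2 at 3.63 to 4.56, and KIAA0040 at 0.164 to 0.785 overlapped CRISPLD1 at 0.207 to 0.938, which in turn overlapped UNC5B at 0.0382 to 0.275. Among the 6 parental A549 libraries, the lowest value of LSR, KIAA0040, CRISPLD1 and UNC5B was that of parental noDox replicate 2.

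Of 15986 genes compared between the parental lines, 5042 (31.5%) were called higher and 4472 (28%) lower in A375, and all 6 members were called. On the log2 scale, KIAA0040 was higher in A375 by 5.73 (SE 0.22, FDR = 1.2e-11), UNC5B by 2.99 (SE 0.22, FDR = 1.3e-08) and CRISPLD1 by 2.44 (SE 0.20, FDR = 4.9e-08). LSR was lower in A375 by -2.15 (SE 0.25, FDR = 1.8e-06), EPHX1 by -2.74 (SE 0.05, FDR = 1.7e-14) and PPFIBP2 by -6.20 (SE 0.09, FDR = 2.1e-15). Without the A549 library parental noDox replicate 2, the values were 5.56, 2.81 and 2.28 for the first 3 and -2.33, -2.70 and -6.14 for the others. As the parental libraries were among those read to choose the members, the FDRs of the members are not a test on separate data. The line cannot be told apart from sequencing depth and batch. PPFIBP2 and EPHX1, low with MCM7 in A375 alone, were both lower in A375 than in A549, and so was LSR, low with MCM7 in both lines.

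The genes that resembled each member most over the 12 A375 libraries were ranked by Pearson's r of log2 CPM among 13141 genes with a mean of at least 1 CPM. These libraries differ mainly in whether MCM7 was low, which all such genes share. CRISPLD1 was closest to MCM7 itself (r = 0.995, n = 12), followed by PIK3R2, a regulatory subunit of PI 3-kinase, and ZNF395 (both 0.994). By Spearman's rho, however, MCM7 was at 0.755 with CRISPLD1, below PIK3R2 at 0.944 and ZNF395 at 0.930. LSR was closest to CHST12, a chondroitin sulfotransferase (0.996), CDC34, an E2 ubiquitin-conjugating enzyme (0.995), and OAF (0.994). UNC5B was closest to the receptor phosphatase PTPRH (0.998), the hedgehog inhibitor SUFU (0.995) and the thiol dioxygenase ADO (0.995). In A549, these 8 genes other than MCM7 were lower in each of the 3 libraries low in MCM7, as were 18.1% of 13785 genes. Their r with the member was 0.796 to 0.955 over the 12 libraries. CRISPLD1, LSR and UNC5B were themselves picked for this order, so the count and r reflect that choice.

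KIAA0040 and EPHX1 differed from that. KIAA0040 was closest in A375 to LRIG1, an inhibitor of receptor tyrosine kinases (r = 0.995), the WNT-responsive factor TCF7 (0.993) and GAREM1 (0.991). In A549 its r was 0.870 with TCF7 but -0.865 with LRIG1 and -0.562 with GAREM1, as LRIG1 was at 18.9 to 21.7 CPM in the libraries low in MCM7 and at 12.1 to 14.4 CPM in the others. EPHX1 was closest in A375 to CDIPT, the phosphatidylinositol synthase (0.993), CLN6 (0.991) and DMAC2 (0.991). These 3 genes were lower in the A549 libraries low in MCM7, CDIPT for example at 36.3 to 43.5 CPM against 60.5 to 75.0 CPM. EPHX1, chosen as low in A375 alone, was not, and its r with them was 0.345 to 0.452 there. PPFIBP2 was under 1 CPM in A375 and was not ranked. Ranked by Spearman's rho in place of r, 0 of the 3 genes stayed among the top 3 for each of the 5 members. Between the 6 members themselves, r in A375 was 0.940 to 0.985. All 6 were chosen for their fall in these same libraries, so these values reflect that choice.

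Lists of related genes were tested in the fit over all genes, and of 122 tested relatives 12 (9.84%) were called higher with Dox in A375 shMCM7 cells and 10 (8.197%) lower, beside 5.58% and 6.45% of all genes, which are the background for the count of each list as well. Without shMCM7 noDox replicate 1, a setting added after the data were seen, 12 were called higher and 12 lower. Of the 22 called relatives, 19 were called in the same direction there and 3 were no longer called, UNC5C, PTPRD and CYP3A5, while 2 others were called higher (PI15 and CYP4V2) and 3 lower (UNC5D, NEO1 and SULT1A1). The median log2 fold change over all 16087 genes was 0.0045.

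Around LSR, 27 other tight junction genes were tested, of which 1 rose and 2 fell (median 0.22). CLDN4, a claudin, fell with a log2 fold change of -0.99 (SE 0.12, FDR = 0.00025) and F11R, the junctional adhesion molecule A, with -0.92 (SE 0.12, FDR = 0.00034). CGN, the cytoplasmic plaque protein cingulin, rose with 0.79 (SE 0.13, FDR = 0.0012). In A549, F11R was also lower in the 3 libraries low in MCM7 (48.0 to 52.7 against 63.5 to 95.7 CPM) and CGN was higher (16.4 to 19.7 against 7.72 to 11.2 CPM), while CLDN4 overlapped. The LSR paralog ILDR2 was not called (0.33, FDR = 0.160), and ILDR1 was too low to be tested.

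Around UNC5B, 5 of 18 other genes rose and 1 fell (median 0.21). The netrins NTN5 and NTN4 rose with 1.31 (SE 0.20, FDR = 0.00093) and 0.86 (SE 0.06, FDR = 4.1e-05). The netrin receptor DCC rose with 0.97 (FDR = 0.0022) and the vascular receptor ROBO4 with 0.79 (FDR = 0.0012). Before induction, DCC stood above its parental level (2.17, FDR = 0.0023), at 0.795 to 1.31 CPM in shMCM7 noDox and 0.182 to 0.347 CPM in parental noDox cells. The paralog UNC5C rose with 0.85 (FDR = 0.017), or 0.64 (FDR = 0.0314, not called) without shMCM7 noDox replicate 1. Against parental cells with Dox, however, UNC5C was at -0.07 (FDR = 0.715), and uninduced shMCM7 cells were at -1.04 against parental cells (FDR = 0.105, not called). FLRT1, a membrane protein of the FLRT family that includes UNC5 ligands, fell with -0.82 (FDR = 0.018). UNC5D was at -0.64 (FDR = 0.0626, not called), or -0.87 (FDR = 0.0076, called lower) without shMCM7 noDox replicate 1, and UNC5A was at -0.07 (FDR = 0.890). In A549, NTN4 was at 128 to 139 CPM in the libraries low in MCM7 and 86.3 to 108 CPM in the others, and NTN5 at 1.36 to 1.67 against 0.200 to 0.818 CPM. For DCC, UNC5C and ROBO4, no A549 library had more than 2 reads.

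Around CRISPLD1, 3 of 14 genes with CAP or LCCL domains rose and 4 fell (median 0.06). The closest paralog CRISPLD2 fell with -0.64 (SE 0.10, FDR = 0.00075), COCH, the inner ear matrix protein cochlin, with -1.07 (FDR = 8.9e-05), CRISP2 with -1.67 (FDR = 0.0016) and PI16 with -1.84 (FDR = 0.0068). GLIPR1 rose with 0.81 (FDR = 4.9e-05), GLIPR1L2 with 1.55 (FDR = 0.0036) and VIT with 0.94 (FDR = 0.0025). The largest of these changes rest on few reads. PI16 had 3 to 6 reads per library in shMCM7 Dox and 12 to 21 in shMCM7 noDox cells. In the same groups CRISP2 had 11 to 20 against 32 to 59 reads, and GLIPR1L2 had 45 to 73 against 9 to 26. In the A549 libraries low in MCM7, COCH was lower (38.8 to 47.1 against 59.3 to 69.8 CPM), GLIPR1 was higher (140 to 171 against 62.0 to 88.8 CPM), and CRISPLD2 overlapped (17.02 to 17.6 against 12.7 to 19.2 CPM).

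Around PPFIBP2, 2 of 22 genes for liprins and cortical scaffold partners rose and 0 fell (median 0.04). Those that rose were PPFIA2, a liprin alpha, with 1.00 (SE 0.13, FDR = 0.00039) and PTPRD, a receptor phosphatase to which liprins bind, with 0.68 (FDR = 0.0076), or 0.53 (FDR = 0.0148, not called) without shMCM7 noDox replicate 1. PTPRD, too, differed from parental cells before induction (3.64, FDR = 0.00015), at 3.54 to 5.10 CPM in shMCM7 noDox and 0.174 to 0.526 CPM in parental noDox cells. The paralog PPFIBP1 was at 0.16 and was not called. Around EPHX1, 1 of 41 xenobiotic enzyme genes rose and 3 fell (median -0.18). CYP2S1, a cytochrome P450, fell with -1.36 (SE 0.12, FDR = 7.8e-05), CYP3A5 with -0.80 (FDR = 0.016; -0.61 and FDR = 0.0449, not called, without shMCM7 noDox replicate 1) and POR, the reductase that supplies P450 enzymes with electrons, with -0.59 (FDR = 0.00015), while AKR1B10 rose with 1.03 (FDR = 0.0014). The other epoxide hydrolases EPHX2, EPHX3 and EPHX4 had log2 fold changes of -0.29, 0.07 and 0.45 and were not called. EPHX4 was lower in the A549 libraries low in MCM7, at 0.105 to 0.471 CPM from 2 to 9 reads against 0.530 to 0.973 CPM, and CYP2S1 was lower there as well, at 44.0 to 55.7 against 58.4 to 78.3 CPM. For CYP3A5, POR, AKR1B10, EPHX2 and EPHX3 the 2 sets of A549 libraries overlapped.

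**Figure D5:**
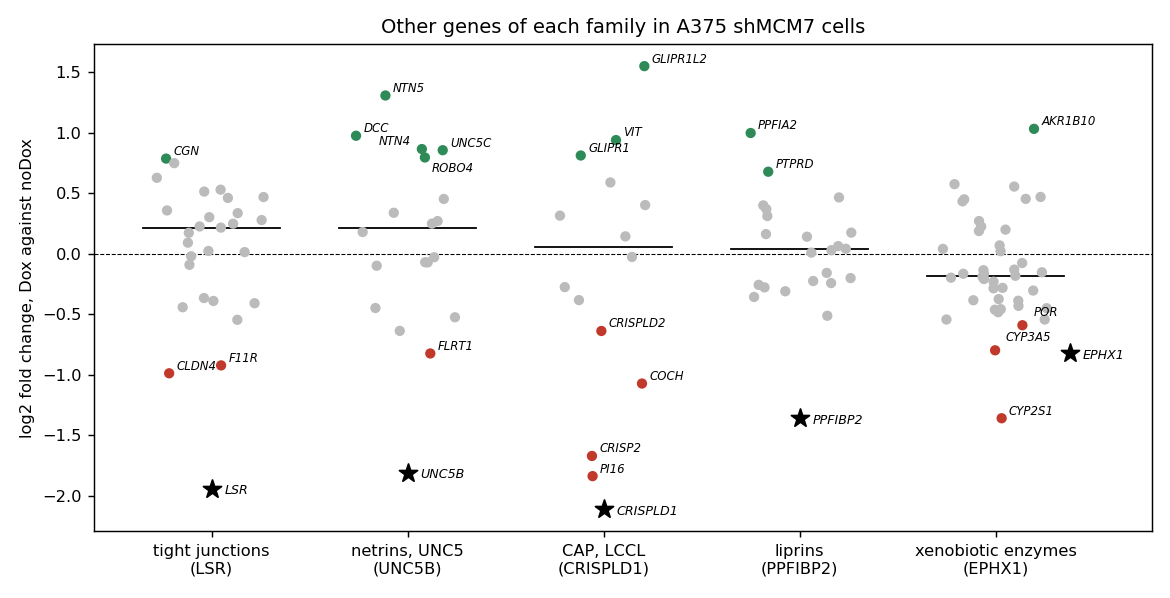
Log2 fold change with Dox in A375 shMCM7 cells for the tested relatives of 5 members (red, called lower; green, called higher; grey, not called; line, median of the relatives), with the member as a star. The members lie between -2.11 and -0.82, and called relatives lie on either side of 0 in 4 of the 5 lists, the liprins having 2 that rose and 0 that fell.

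The neighbours on the chromosome were looked up as well. Of the 12 nearest tested genes on either side of the 6 members, 1 was called higher and 0 lower in A375 shMCM7 cells, beside 5.58% and 6.45% of all genes. The called one was HNF4G, 373 kb from CRISPLD1, with a log2 fold change of 0.60 (SE 0.16, FDR = 0.014), and on the other side of CRISPLD1 the CAP domain gene PI15 was at 0.59 (FDR = 0.0288, not called). Without shMCM7 noDox replicate 1, both were called higher, with 0.75 and 0.86. Another 3 neighbours had a low FDR but less than a 1.5-fold change: FXYD5 beside LSR at 0.42 (FDR = 0.00042), PCBD1 beside UNC5B at -0.49 (FDR = 0.00039) and CYB5R2, 7.97 kb from PPFIBP2, at -0.58 (SE 0.07, FDR = 0.00026). USF2, 1.01 kb from LSR, was at 0.00 (SE 0.11) and SLC29A3, 16.4 kb from UNC5B, at 0.00 (SE 0.09).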

How the data were processed

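The authors counted reads per gene and deposited 1 table of raw whole-number counts for each of the 24 libraries, not normalized and listed by Ensembl identifier. The submitters' processing notes name bcl2fastq 2.19, Trimmomatic, STAR 2.7.1, featureCounts, edgeR and GRCh38.p10, and whether counting used the strand is not given in the sources used here. Names and positions are from GENCODE 29, in which 21349 of 21386 identifiers were found. Depth was 146656792 to 283721575 counts per A375 library and 17911338 to 23452823 per A549 library, and limits from counts cover counting error only. No replicates were identical (chi-square per degree of freedom between 1.95 and 108 over 24 pairs).

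Counts were tested in R 4.3.3 with edgeR 4.0.16 (filterByExpr, TMM, glmQLFit and glmQLFTest, prior count 0.125), using only the libraries compared, with Dox as a covariate between the lines. Genes were called at a fold change of 1.5, p under 0.01 and FDR under 0.05, the thresholds of the study. CPM used TMM factors over all 24 libraries. The steps were checked on simulated data. DESeq2 1.42.0 size factors and Wald test, no filter, at least 10 counts in every library, the replicate number as a block, 1 Dox condition at a time for the lines, and leaving out each library were the alternatives. Groups are those of the labels. In shMCM7 against parental noDox cells of A375, the 3 same-numbered pairs deviated together (r = 0.212 to 0.341 across genes, which are not independent replicates). The main fit of that comparison did not use the pairing, which entered only as the block alternative.

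The members and lists were chosen with earlier results of these data known. Named are the members and MCM7, their paralogs, the called genes of 5 family lists, the 3 genes of most similar pattern, and the nearest tested genes on either side. No library was left out of the values reported as main.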

Additional observations from a re-analysis of the deposited data

Results flagged for a closer look

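EPHX1 had ratios of Dox over noDox on opposite sides of 0 in the 2 kinds of A375 cells. Between same-numbered libraries, the log2 ratio was above 0 in all 3 parental pairs, with a smallest value of 0.0524, and below 0 in all 3 shMCM7 pairs, with a smallest fall of -0.726. The libraries share only a number in these comparisons. In parental cells the groups overlapped and EPHX1 was not called in edgeR's quasi-likelihood test (log2 fold change 0.11, SE 0.07, FDR = 0.771), and its fall in shMCM7 cells is what it was chosen for. Whether the ratios differ between the 2 kinds of cells was not tested. The groups hold 3 libraries each, too few for a search for single outlying libraries.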

How the results depend on the processing

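The falls of the 6 members in A375 shMCM7 cells, against noDox and against parental cells with Dox, and the differences between the parental lines kept their direction and stayed past the thresholds under every alternative that gave a value. Counts of called genes moved as follows. Dox in A375 parental cells gave 3 genes called higher with DESeq2's Wald test, 12 with the replicate block, and 0 to 1 with a library left out, against 0. Uninduced shMCM7 against parental A375 cells gave 335 higher and 149 lower with the block, against 189 and 77, and 39 to 66 lower with a library left out, the lowest without parental noDox replicate 2 and 40 without replicate 3, 50 without shMCM7 noDox replicate 2. Parental A549 cells by label gave 9 higher with DESeq2's Wald test and 0 to 300 with a library left out, against 0, the 300 being without parental noDox replicate 3. The cause was not tested.

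Leaving out a library turned the sign of several uncalled log2 fold changes. With Dox in A375 parental cells these were LSR (-0.0434 to 0.10), KIAA0040 (-0.16 to 0.10) and PPFIBP2 (-0.10 to 0.14). Between uninduced shMCM7 and parental A375 cells they were LSR (-0.21 to 0.11) and EPHX1 (-0.0750 to 0.0518). In A549 shMCM7 cells by label they were CRISPLD1 (-0.42 to 0.62), LSR (-0.19 to 0.62), KIAA0040 (-0.0337 to 1.04), UNC5B (-0.37 to 0.34) and PPFIBP2 (-0.0864 to 0.0411), and in A549 parental cells CRISPLD1 (-0.19 to 0.70), UNC5B (-0.18 to 0.72) and PPFIBP2 (-0.11 to 0.0421).

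Outside uninduced shMCM7 against parental A375 cells, libraries share only a number (mean r from -0.379 to 0.193), and with the block 969 genes were called higher and 1091 lower in A375 shMCM7 cells, against 897 and 1037. In A375 shMCM7 cells every library correlated best with its own number, a hint from the data and not from the design. In A549 depth limits CRISPLD1 and UNC5B, which had 5 to 20 reads in the libraries low in MCM7.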
